A study of Mus musculus with 6 samples.

Results

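Bone morphogenetic protein (BMP) signalling was examined here through 9 genes, the ligands Bmp2, Bmp4, Bmp6 and Bmp7 and the secreted antagonists Grem1, Nog, Chrd, Bmper and Fst. They were chosen by gene symbol, with earlier results of these data known. Each had 1 probe set among the 20239 named genes on the arrays, so that 9 of 9 were measured. RNA came from isolated mouse pericytes of the C57BL/6 background, the mural cells that wrap small vessels, kept for 5 days either as control or with 100 ng/ml of PDGF-BB. PDGF-BB, the dimer of platelet-derived growth factor B chains, activates PDGFR-β, the receptor through which pericytes are recruited to vessels. Each group had 3 arrays, numbered 1 to 3 in the labels. The arrays were 1-colour, with total RNA as the starting material and biotin as the label. The sources used here do not name the organ the cells came from or the control's vehicle. Nor do they say whether the 3 samples of a group were separate isolations, so the p-values cover the spread among these samples only, and that spread may be technical.

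BMPs are secreted dimers of the TGF-β superfamily that bind type I and type II receptor serine kinases, which phosphorylate SMAD1, SMAD5 and SMAD9. These factors enter the nucleus with SMAD4 and switch on targets such as the Id genes and the inhibitory SMADs. How much ligand reaches a receptor is set outside the cell by antagonists that hold the dimer in an inactive complex. In vessels, BMPs act on endothelial and mural cells, and Bmp2 is known for its part in vascular calcification.

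Promoter sequence is shown for Bmp4 and Bmper, which passed the test in opposite directions and have an entry in RefSeq's promoter table (GRCm38.p6). That table held 5 of the 9 genes, namely Bmp4, Bmp6, Bmper, Chrd and Grem1. Each line below gives the 250 bases before the start site, 5′ to 3′ on the gene's strand, at chr14:46390670-46390919 (minus strand) for Bmp4 and chr9:23222826-23223075 (plus strand) for Bmper. Capitals mark any match, on either strand, to 5 motifs. These were GGCGCC, a GC-rich element bound by SMADs of the BMP branch, the AP-1 site TGAGTCA, the E-box CACGTG, the TATA box TATAAA, and the CArG box of serum response factor. No matches overlapped in the sequences shown.
Bmp4: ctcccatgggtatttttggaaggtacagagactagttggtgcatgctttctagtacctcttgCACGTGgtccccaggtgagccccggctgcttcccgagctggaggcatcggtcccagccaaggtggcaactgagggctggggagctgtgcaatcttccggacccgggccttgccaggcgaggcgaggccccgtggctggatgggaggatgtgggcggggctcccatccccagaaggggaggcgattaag
Bmper: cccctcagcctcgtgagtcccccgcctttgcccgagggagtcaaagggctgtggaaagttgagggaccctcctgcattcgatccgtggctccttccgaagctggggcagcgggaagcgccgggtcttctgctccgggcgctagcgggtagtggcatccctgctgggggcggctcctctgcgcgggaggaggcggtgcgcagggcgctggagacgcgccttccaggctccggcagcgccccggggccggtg
The Bmp4 window held 1 match, to the E-box, beginning 188 bases before the start, a motif present in 6.02% of the 32851 promoters of the table. Bmp6 had the same motif 127 bases before its start, and Chrd and Grem1 each had 1 GGCGCC, which 9.59% of promoters held. The Bmper window held none of the 5. The AP-1 site, the TATA box and the CArG box stood in 4.46%, 12.4% and 1.47% of promoters and in none of these 5 windows. G and C made up 63.2% of the Bmp4 window and 71.6% of the Bmper window, with a median of 52.4% over all promoters. The matches are descriptions of sequence and were not tied to the expression values.

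Expression values are log2 values as the authors deposited them, and a change is PDGF-BB minus control. Array medians over all genes lay between 8.43 and 8.46, and arrays correlated across genes at r = 0.994 to 0.996 within a group and r = 0.973 to 0.986 between groups. Background was set at 7.49, the 90th percentile of the mean values of 19 genes of blood cells that a pericyte culture should lack (erythroid, mast cell and lymphocyte markers). Pericyte markers were mostly above it (11 of 13; Pdgfrb 12.98 and 12.85), but Des and Abcc9 lay under it in both groups, and Rgs5 (7.77 in control, 7.71 with PDGF-BB), Kcnj8 (7.85 and 7.63) and Myh11 (7.69 and 7.51) close to it; 1 of the 13 rose and 3 fell, with a mean log2 level of 9.40 to 9.58 in control and 9.20 to 9.28 with PDGF-BB. Of 10 endothelial markers 3 were above background in a group mean and none passed limma's test (1, Cdh5, had an unadjusted p under 0.05). Those 3, named after their values were seen, were Cdh5 (7.19 in control, 7.64 with PDGF-BB), Vwf (7.79 in both) and Cldn5 (7.64 in both). Pecam1, Kdr and Emcn were under background, and the list's mean log2 level was 6.96 to 7.02 in control and 6.97 to 7.06 with PDGF-BB. Of 10 macrophage markers 3 were above background, with Ptprc and Adgre1 under it, and 2 were higher and 2 lower (mean level 6.79 to 6.83 and 6.83 to 7.02). Named after their values were seen, the higher were Mpeg1 (log2 change 1.40) and Cd14 (0.80). Mpeg1 had a control mean of 6.24, under background, and a PDGF-BB mean of 7.64. Its PDGF-BB array 3, at 7.11, was also under background, so the size of its rise is not exact. The lower were Cd68 (-0.42) and Lyz2 (-0.49, under background in both groups). All 8 fibroblast markers were above background and 3 were higher (12.11 to 12.23 and 12.60 to 12.92), with a median log2 change of 0.25. The higher ones were Lum (log2 change 2.91), Dpt (0.72) and Pdpn (0.64), named after their values were seen. Thy1 (0.34), Col1a1 (0.17), Dcn (0.08), Col1a2 (0.03) and Pdgfra (-0.07) did not pass. Of 6 adipocyte markers 3 were higher (8.09 to 8.34 and 9.10 to 9.17), and Adipoq was under background. Those 3, named after their values were seen, were Fabp4 (log2 change 3.02), Lpl (1.35) and Pparg (0.98). Plin1 (-0.05), Cebpa (-0.08) and Adipoq (0.13) did not pass. All 6 of 6 proliferation genes were higher (10.06 to 11.11 and 11.76 to 11.84). Beside these marker counts, limma called 10.1% of all genes higher and 11.4% lower. The part of the marker shifts in the BMP results was not tested. In RNA from a whole culture, fewer cells of a type and less RNA per cell cannot be told apart.

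Of the 9 genes, Bmp2 and Bmper rose and Bmp4 fell with PDGF-BB, while Bmp6, Bmp7, Grem1, Nog, Chrd and Fst did not pass the test. Bmp2 rose 3.66-fold, Bmper rose 1.68-fold and Bmp4 was 1.68-fold lower. That is 3 of 9 called, 2 higher and 1 lower, by limma at an adjusted p under 0.05 (Benjamini-Hochberg over all genes). Of the 20239 genes 21.5% were called, 10.1% higher and 11.4% lower, and nothing particular to the 9 is read from their share. Their median log2 change was 0.01, beside -0.02 over all genes. In 6 of the 9 the arrays of the groups did not overlap, as in 37.6% of all genes.

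**Figure D1:**
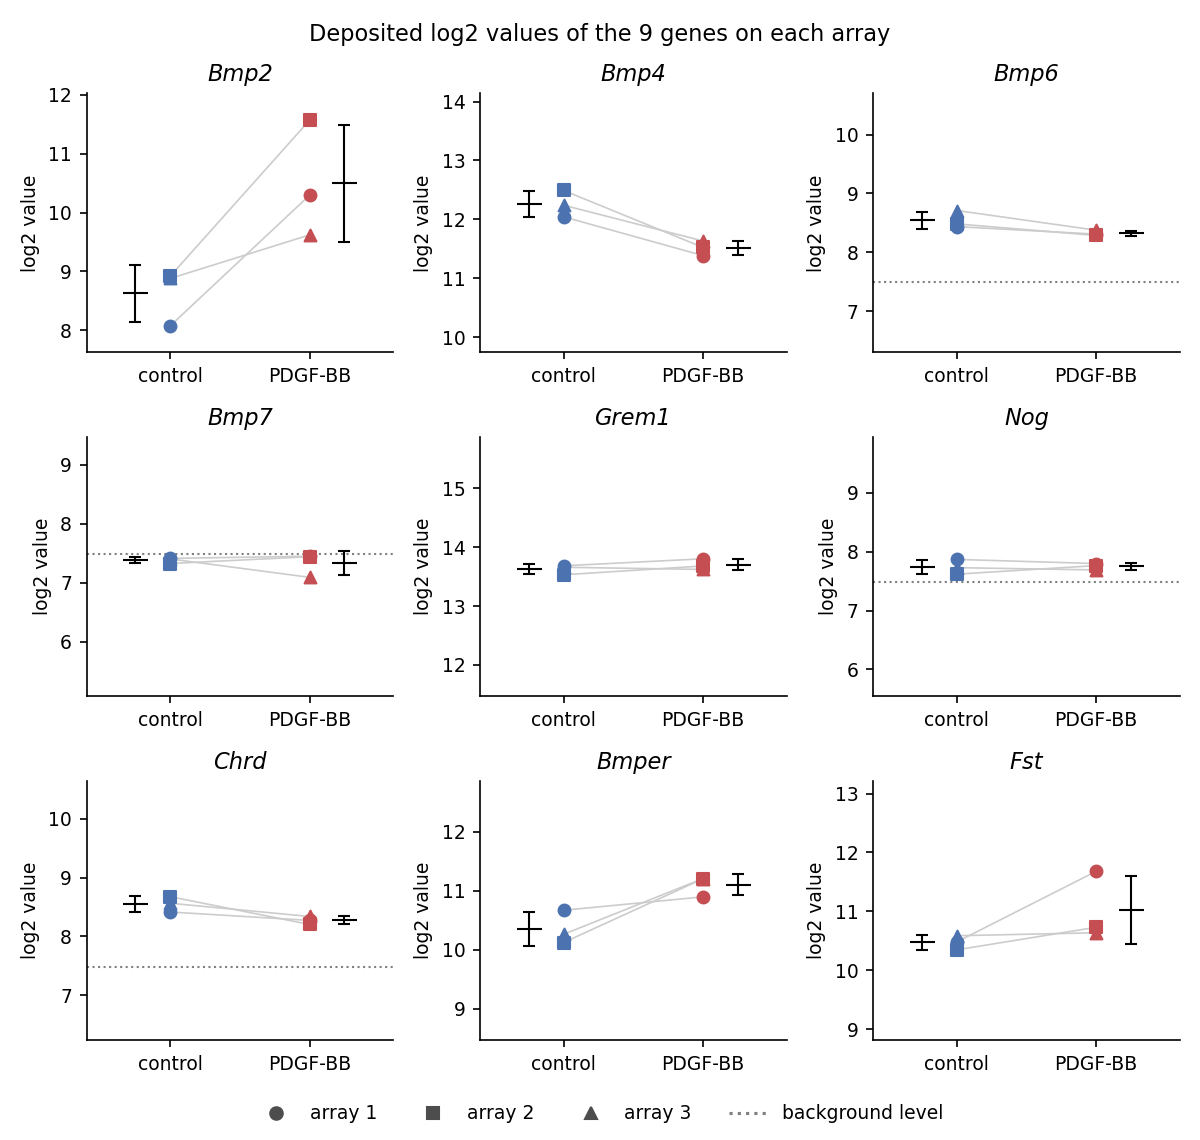
Deposited log2 values (y axis, of equal height in log2 units in every panel) of the 9 genes in control and PDGF-BB arrays; marker shapes give the array number, grey lines join arrays of the same number, and black bars beside the points are mean and SD (n = 3). Bmp2 shows the widest PDGF-BB spread (9.62 to 11.57), Bmp4 lies lower on all 3 PDGF-BB arrays, and all 6 Bmp7 values are under the dotted background level of 7.49.

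Bmp2, an inducer of bone and cartilage formation (Entrez gene 12156), measured 8.08, 8.92 and 8.88 on control arrays 1, 2 and 3 and 10.29, 11.57 and 9.62 on the PDGF-BB arrays of those numbers. The lowest PDGF-BB array was 0.70 log2 units above the highest control array, so the groups did not overlap. The means were 8.62 ± 0.48 and 10.49 ± 0.99 (SD, n = 3 each), a log2 change of 1.87 (SE 0.48, 95% interval 0.73 to 3.01, adjusted p = 0.033, limma), or 3.66-fold with an interval of 1.66 to 8.05. Few genes moved as far: 0.553% of all genes had a change of at least that size. The size of the rise was uncertain, since same-numbered arrays differed by 2.22, 2.65 and 0.74 log2 units. The SD among PDGF-BB arrays was reached by 0.163% of genes, against a median SD of 0.08. The call was lost without control array 1 (adjusted p = 0.083), control array 2 (0.066), control array 3 (0.069) or PDGF-BB array 1 (0.080), with log2 changes between 1.33 and 2.31 over the 6 fits that left out 1 array.

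Bmp4, the close relative of Bmp2 within the same ligand subgroup (Entrez gene 12159), moved the other way. Its control values were 12.04, 12.49 and 12.24 and its PDGF-BB values 11.38, 11.52 and 11.63 on arrays 1, 2 and 3. Every PDGF-BB value was lower than every control value, by at least 0.41. The means were 12.26 ± 0.22 and 11.51 ± 0.12 (SD, n = 3 each), a log2 change of -0.74 (SE 0.12, 95% interval -1.03 to -0.45, adjusted p = 0.0065, limma), which is 1.68-fold lower (interval 1.37 to 2.05). Differences of same-numbered arrays were -0.66, -0.97 and -0.61. This was the steadiest of the 3 calls, passing in 13 of 13 alternative fits with log2 changes of -0.85 to -0.63.

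Bmp6 and Bmp7 belong to another ligand subgroup, known in skeletal and kidney development, and Bmp6 also in iron balance. Bmp6 (Entrez gene 12161) measured 8.43, 8.48 and 8.71 in control and 8.31, 8.28 and 8.37 with PDGF-BB. The groups were separated by only 0.06, with a log2 change of -0.22 (95% interval -0.42 to -0.02) that did not pass after adjustment (adjusted p = 0.12, limma). Bmp7 (Entrez gene 12162) measured 7.41, 7.33 and 7.40 in control and 7.45, 7.44 and 7.09 with PDGF-BB, under background on all 6 arrays. Its log2 change was -0.05 (95% interval -0.30 to 0.19, adjusted p = 0.80, limma), and at this level a difference may go undetected.

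**Figure D2:**
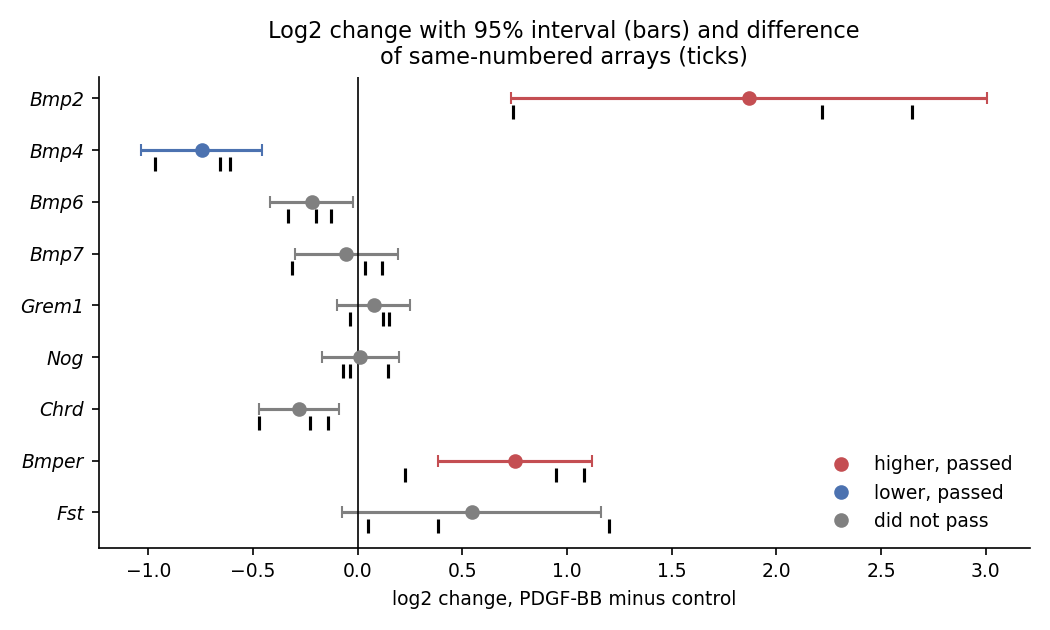
Log2 change (x axis) of each gene with its 95% interval from limma; short ticks under each point are the differences between arrays of the same number. The intervals of Bmp2 (0.73 to 3.01) and Bmper (0.39 to 1.12) lie above 0 and that of Bmp4 (-1.03 to -0.45) below it; those of Bmp6 and Chrd also exclude 0 but did not pass after adjustment.

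Among the antagonists, Bmper, also known as crossveinless-2, binds BMPs and chordin and is known both to inhibit and to promote BMP signalling (Entrez gene 73230). It measured 10.67, 10.12 and 10.26 on control arrays 1, 2 and 3 and 10.90, 11.20 and 11.21 with PDGF-BB. The PDGF-BB arrays were all higher, by at least 0.23. The means of 10.35 ± 0.29 and 11.10 ± 0.18 (SD, n = 3 each) gave a log2 change of 0.75 (SE 0.15, 95% interval 0.39 to 1.12, adjusted p = 0.015, limma), or 1.68-fold (interval 1.31 to 2.17). Arrays numbered 1 differed by 0.23, and those numbered 2 and 3 by 1.08 and 0.95. The call was lost without control array 3 (adjusted p = 0.051), PDGF-BB array 2 (0.051) or PDGF-BB array 3 (0.054).

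Chrd encodes chordin, which holds BMP dimers until tolloid proteases cut it (Entrez gene 12667). It measured 8.41, 8.68 and 8.56 in control and 8.27, 8.20 and 8.34 with PDGF-BB, without overlap. Its log2 change of -0.28 (SE 0.08, 95% interval -0.47 to -0.09) lay just outside the threshold (adjusted p = 0.0502, limma). It passed with a robust variance estimate (0.049) and without control array 1 (0.023), and did not in the other 10 of 12 alternatives.

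Fst encodes follistatin, best known for binding activins and also a binder of BMPs (Entrez gene 14313). Its control values of 10.48, 10.35 and 10.59 were followed by 11.68, 10.73 and 10.64 with PDGF-BB. PDGF-BB array 1 stood well above the other two, and PDGF-BB array 3 exceeded the highest control by only 0.05. It had a log2 change of 0.54 (SE 0.26, 95% interval -0.07 to 1.16, adjusted p = 0.21, limma), and of 0.21 without PDGF-BB array 1 (adjusted p = 0.19). The SD of the PDGF-BB arrays, 0.58, was reached by 0.805% of genes. Bmp2 and Fst thus had the widest PDGF-BB spreads of the 9, with different arrays highest.

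Grem1 encodes gremlin-1, a DAN family antagonist of BMP2 and BMP4 that is made by mesenchymal cells (Entrez gene 23892). It was strongly detected on every array, at 13.68, 13.53 and 13.66 in control and 13.80, 13.68 and 13.62 with PDGF-BB. The groups overlapped, and the log2 change of 0.08 had a 95% interval of -0.10 to 0.25 (adjusted p = 0.55, limma). These values lie near the top of the deposited range, which ended at 14.23, and whether the probes could still register an increase was not tested. Nog, noggin, blocks the receptor-binding surfaces of BMPs (Entrez gene 18121). It measured 7.87, 7.62 and 7.73 in control and 7.80, 7.76 and 7.69 with PDGF-BB, overlapping and only a little above background, and differed between groups by 0.01 log2 units (95% interval -0.17 to 0.20, adjusted p = 0.94, limma).

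**Figure D3:**
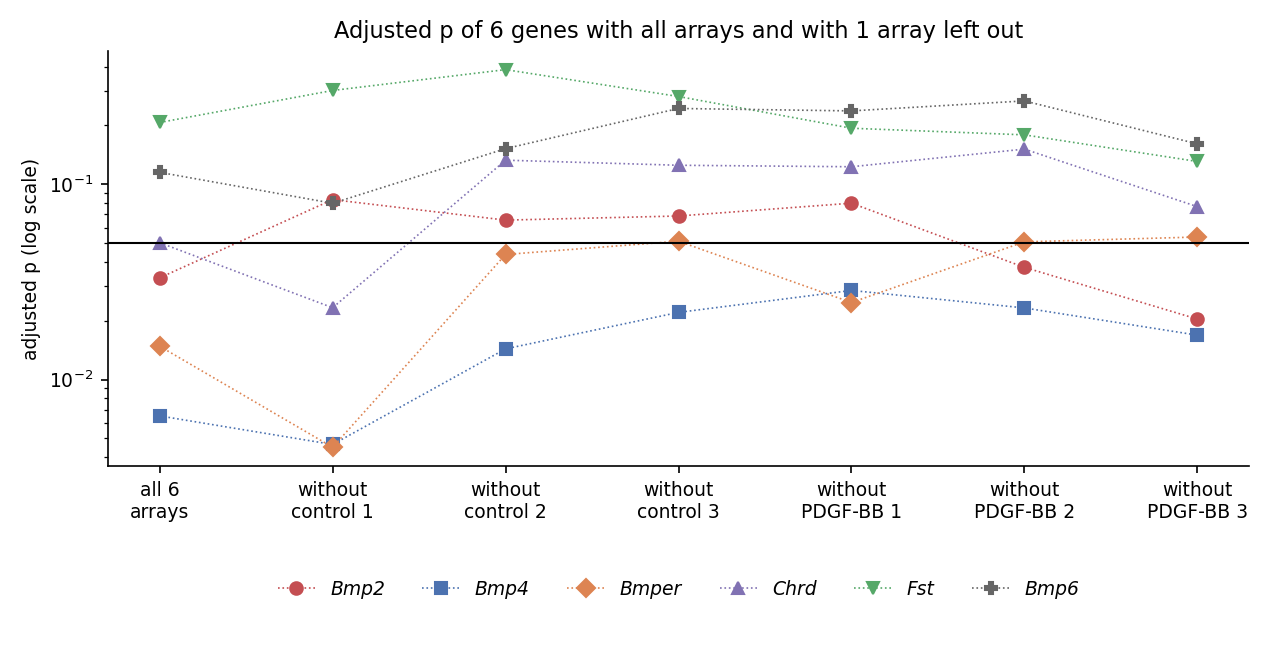
Adjusted p from limma (y axis, log scale) of 6 of the 9 genes with all 6 arrays and with each array left out (x axis); the black line is the threshold of 0.05. Bmp4 stays under the line in all 7 fits, Bmp2 is above it in 4 (0.066 to 0.083) and Bmper in 3 (0.051 to 0.054) of the 6 fits with an array left out.

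Distances between genes over the 6 arrays were Euclidean, after each gene's mean was subtracted. As a description, the genes closest to each called gene are given, with provisional gene-model symbols, such as those ending in Rik, left out. For Bmp2 they were Nptx1 (distance 0.77, log2 change 1.80), Prrg4 (0.85, 2.04) and Camk1d (0.92, 1.56). For Bmp4 they were Sorbs3 (0.09, -0.70), Zfp867 (0.10, -0.77, with a PDGF-BB mean of 7.23, under background) and Plcl1 (0.11, -0.68). For Bmper they were Haus7 (0.21, 0.86), Lrrc8b (0.23, 0.69) and Hyou1 (0.24, 0.75). Distances were larger for Bmp2, whose values spread over more log2 units.

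Around these ligands and antagonists, 68 other measured genes of the pathway were read from 6 lists. Of the 68, 4 were higher and 19 lower (10.1% and 11.4% of all genes), and 16 were at background in both groups. The lists were chosen with earlier results of these data known, so the counts are a description and no excess was tested. The count of lower genes was 12 when control array 3 was left out, and 11 when PDGF-BB array 1 or 2 was. Of 13 other BMP and GDF ligands limma called none, with 0 at an unadjusted p under 0.05, and 8 lay at background. Bmp3, a ligand that opposes other BMPs, had a log2 change of -0.75 (adjusted p = 0.33) and Inhbb, an activin subunit, 0.33 (adjusted p = 0.25); fitted with replicate as a block, both passed (0.0053 and 0.027). Gdf10 and Bmp8a had log2 changes of -0.10 and -0.08.

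Of 20 other antagonists and modulators 2 rose and 4 fell (10.1% and 11.4% of all genes). Rgmb and Rgma, BMP co-receptors of the repulsive guidance family, rose by 0.93 and 0.55 on the log2 scale, and Crim1, which binds BMPs at the cell surface, and Nbl1, a DAN family antagonist like Grem1, fell by 1.51 and 0.95. The other 2 that fell, named after their values were seen, were Fstl1 (-0.42) and Chrdl1 (-0.25), the latter under background in both groups and called in only 1 of the 6 fits that left out 1 array (the others 0.077 to 0.086). Of 7 proteases 1 rose and 3 fell. With each array centred on its median 1 rather than 3 fell. The same count came from 4 fits that left out 1 array (control 2, control 3, PDGF-BB 1 and PDGF-BB 2), and 2 rose without control array 1. The filter on dim probe sets removed Tll1, Tll2 and Pcsk5, which left 1 lower and 0 higher. Tll1 and Tll2 are tolloid-like enzymes of the family that cuts chordin. Tll1 fell (mean 8.72 in control and 6.99 with PDGF-BB), but its PDGF-BB arrays were all under background, so the size of the fall is not exact, and Tll2 rose by 1.26 from a control mean of 7.54, close to background. Bmp1, the founding member of that family, fell by 0.26, a call lost with each array centred on its median (adjusted p = 0.062) and in 5 of the 6 fits that left out 1 array (0.075 to 0.14). The fourth called protease was Pcsk5 (-0.26), also named after its value was seen and under background; its call was lost under both other scalings (0.084 and 0.070) and in 5 of those 6 fits (0.081 to 0.14).

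Downstream of the ligands the called changes were mostly decreases, in lists chosen with earlier results of these data known. Of all genes 11.4% were called lower and 10.1% higher. All 7 receptors had lower PDGF-BB than control arrays, without overlap (37.6% of all genes were separated in either direction). The narrowest gaps were 0.005 log2 units for Bmpr1b, whose PDGF-BB mean of 7.16 lay under background, and 0.06 for Bmpr2. Of the 7, 2 passed (1 without control array 3 or PDGF-BB array 1 or 2, and 4 without control array 1). These were Bmpr1a, a type I receptor, with a log2 change of -0.34 (adjusted p = 0.010, limma), and Acvr2a, a type II receptor, with -0.53 (0.019). Acvr2a did not pass without control array 3 (0.051), PDGF-BB array 1 (0.065) or PDGF-BB array 2 (0.060). Acvrl1 (-0.42, adjusted p = 0.053) and Bmpr2 (-0.25, 0.078) did not pass; in 3 of 13 alternatives Acvrl1 did (0.028 to 0.038), and Bmpr2 in 1 (0.027, without control array 1). Of 8 SMADs and SMAD ubiquitin ligases 6 fell, among them Smad6 (-1.15) and Smad7 (-0.79), the inhibitory SMADs, Smad9 (-0.90), and Smurf2 (-0.27), which missed the threshold in 4 of the 6 fits that left out 1 array (control 2, control 3, PDGF-BB 1 and PDGF-BB 2, adjusted p 0.085 to 0.10). That count was 3 without control array 3, PDGF-BB array 1 or PDGF-BB array 2 and 4 in the other fits that left out 1 array; the remaining pair, Smad4 (-0.31) and Smad5 (-0.21), named after their values were seen, passed in 1 and 0 of those 6 fits. Of 16 transcriptional targets, which include Smad6 and Smad7 again and Bambi, also listed among the antagonists and modulators, 6 fell and 1 rose. Id3, an inhibitor of helix-loop-helix factors, fell by 1.87 (adjusted p = 0.0034, limma) and Sox9, a cartilage transcription factor, rose by 0.69 (0.0081). Sox9 was also the only called gene among 9 osteoblast and chondrocyte markers (median log2 change 0.0060), in which Acan, Col2a1, Bglap, Sp7 and the rest did not pass. Atoh8, Id1 and Id4, named after their values were seen, had log2 changes of -1.56, -0.71 and -0.58, the last with all 3 PDGF-BB arrays under background, so that its size is not exact. Id1 missed the threshold when control array 2 or any PDGF-BB array was left out (0.062 to 0.11), and Id4 when PDGF-BB array 3 was (0.0504). The median log2 changes were -0.34 for receptors, -0.29 for SMADs and ligases and -0.24 for targets, beside 0.01 for the 9 ligands and antagonists.

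**Figure D4:**
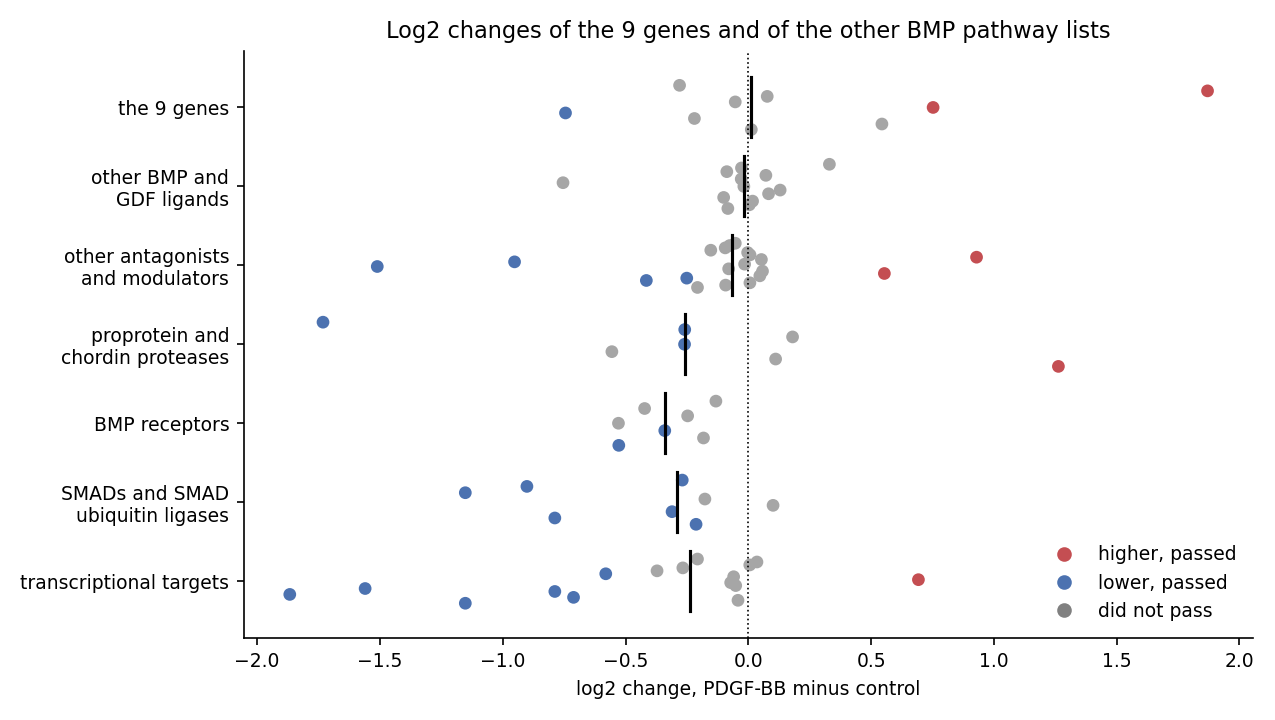
Log2 change (x axis) of the 9 genes and of the genes in 6 other BMP pathway lists (rows); each point is a gene, coloured by whether it passed limma's test, and black bars are list medians. Called points of the receptor and SMAD rows lie left of 0, while the 9 genes lie on both sides, from -0.74 (Bmp4) to 1.87 (Bmp2).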

How the data were processed

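The authors deposited 1 table of log2 values for 21225 probe sets and 6 arrays, produced by RMA (per the submitters' processing notes), which corrects background, equalises array distributions and summarises probes. The sources used here name no software version, probe set design or filter. GEO's platform annotation gave 20239 probe sets exactly 1 symbol each (0 had several); the other 986 entered only an alternative. Because distributions are equalised, each change is measured against the other genes of the array.

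limma 3.58.1 (R 4.3.3; lmFit, eBayes) was fitted to all 6 arrays with group as the only factor, two-sided, after a check on simulated data. The 9 genes, the lists and the rule for named genes (all 9; of each pathway list the 4 smallest p, or up to 2 per direction where calls went both ways) were chosen with earlier results of these data known. Some listed genes were not analysed here. Arrays give no read depth, and 3 per group limit the precision.

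Group deviations of same-numbered arrays correlated at 0.25, 0.32 and 0.25 (other pairs -0.28 to 0.01). Deviations within a group cancel, so positive values for some pairs force negative ones for others. The arrays may be paired by number, though the labels do not say what a number shares. All values reported come from the fit without pairing unless the block is named. Alternatives were 2 other scalings, the replicate number as a block, a filter on dim probe sets, unnamed probe sets included, 2 other variance models, a higher background level and leaving out each array.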

Additional observations from a re-analysis of the deposited data

How the results depend on the processing

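Bmp4 passed under all 13 alternatives. Bmp2 and Bmper passed under the 7 that kept all arrays, and under 2 and 3 of the 6 that left out 1 array. Leaving out 1 array, 0 to 1 of the 9 genes were higher and 1 to 2 lower, 1514 to 2188 of all genes were lower, and 11 to 18 of the other pathway genes were lower. With robust variances 2 of the 9 were lower (Chrd besides Bmp4). With the replicate number as a block, 2 of the 9 were higher and 1 lower, 2213 of all genes higher and 2528 lower, and 5 and 21 other pathway genes; Bmp2 had an adjusted p of 0.013, Bmp4 0.0037 and Bmper 0.023. The block changed no call among the 9; among the other pathway genes it added calls for Bmp3, Inhbb, Bmpr1b (0.042) and Msx2 (0.033), the last 2 named after their values were seen, and ended that of Smad5 (0.061). Signs turned only for uncalled genes: leaving out 1 array, Nog ranged from -0.048 to 0.077 and Bmp7 from -0.11 to 0.065; both other scalings kept the sign of all 9. The filter on dim probe sets removed Bmp6, Bmp7, Nog and Chrd. With background set at 8.25, the highest of the absent markers, 2 of the 9 rather than 1 lay under it, Nog besides Bmp7. Signal over background limits what can be said of both.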
